A study of Mus musculus with 20 samples.

Results

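The genes of fatty acid oxidation and ketogenesis were followed in livers of mice that carry an *IMP2-2* transgene (tg) and of wildtype controls (wt). The list held 39 genes of the pathway, namely its regulators, the carnitine shuttle, the mitochondrial and the peroxisomal steps of beta-oxidation, the acyl-CoA thioesterases and a ketone body enzyme. Where several probe sets stood for a gene, the one of highest mean over the 20 arrays was taken, and 38 of the 39 genes were measured in this way, out of 18194 genes with a probe set of their own. The remaining gene, *Acsl1*, was not analysed here. RNA came from untreated livers of mice aged 5 weeks on a C57Bl6J/DBA2 background. The tg mice (n = 10) overexpressed IMP2-2, the p62 splice variant of the RNA-binding protein IGF2BP2/IMP2, as a liver-specific transgene, and the wt mice (n = 10) did not carry it. The signal of the transgene itself was not analysed here. Which promoter drives the transgene is not stated in the labels or methods read here. Each liver was hybridised to 1 Affymetrix mouse expression array, and levels are log2 signals after Robust Multi-array Average (RMA) normalisation, so that a difference of 1 is a doubling of signal.

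Fatty acids that enter a hepatocyte are bound by fatty acid binding protein, activated to acyl-CoA and, when they are long, carried into the mitochondrion as carnitine esters. CPT1A makes the ester at the outer membrane, the carrier SLC25A20 moves it across the inner membrane, and CPT2 turns it back into acyl-CoA. Inside, acyl-CoA dehydrogenases, hydratases, hydroxyacyl-CoA dehydrogenases and thiolases shorten the chain step by step, and the acetyl-CoA feeds the citrate cycle or, in liver, ketone bodies. Peroxisomes hold a separate set of enzymes that shortens very long, branched and bile acid chains. PPARα, a nuclear receptor, turns on most of these genes during fasting, and the liver is the main organ of ketogenesis.

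The livers differed in ways that touch these genes. In the wt group, wt_1420_6 was nearly the same as wt_1407_2, and so was wt_1420_7 as wt_1407_5. Their differences over all probe sets had an SD of 0.168 and 0.172, against 0.228 to 0.401 for other wt pairs. Each such pair counts once in the wt mean ± SD (n = 8), while the fit used all 20 arrays. Across genotypes, tg_1386_9 and wt_1386_4 differed by still less, with an SD of 0.155. Sample names carry a number that tg and wt arrays share. The 4 arrays named tg_1423_2-8 and wt_1423_2-8 had *Dbp* signals of 9.36 to 11.07, against 4.73 to 6.06 on the other 16 arrays, and *Arntl* signals of 3.87 to 5.62, against 7.53 to 8.09. *Dbp* and *Arntl*, output and core factor of the circadian clock, were chosen for this after their values were seen. Of 9 hepatocyte markers, 0 passed the test in either direction, with a median log2 difference of 0.030 (1 was higher and 1 lower at an unadjusted p under 0.05). Of 9 macrophage markers, 5 were higher in tg livers (*Clec4f*, *Cd68*, *Vsig4*, *Marco* and *Cd14*) and all 9 had a difference above 0. Their mean signal per array was 7.21 to 7.85 in tg and 6.88 to 7.49 in wt livers, beside 13.49 to 13.63 and 13.48 to 13.62 for the hepatocyte markers. Of 7 endothelial markers, 1 was higher by the test and all 7 had a difference above 0. So had 7 of 8 stellate and 6 of 6 cholangiocyte markers, of which 0 passed the test. Of the lymphocyte, erythroid, adipocyte and skeletal muscle markers 0 passed, and most had a difference below 0. In whole liver, fewer hepatocytes and less RNA per hepatocyte cannot be told apart. The part of the macrophage signal, or of that of the other cell types, in the results was not tested.

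Of the 38 genes, 2 were lower in tg than in wt livers at an adjusted p under 0.05 and 0 were higher. The genes that fell were *Cpt2*, the last step of the carnitine shuttle, and *Acads*, the short-chain acyl-CoA dehydrogenase. Among all 18194 genes, 0.967% were lower and 2.98% were higher in the same test (limma with Benjamini-Hochberg adjustment over all probe sets). With the near-identical wt arrays averaged, the count was 0, and it was also 0 without the 4 arrays named tg_1423_2-8 and wt_1423_2-8. It was 0 again when tg_1420_4 was left out together with both tg_1423_2-8 arrays. Of the 20 fits without 1 array, 9 gave a count of 0 and 4 a count of 1. Leaving out tg_1386_9 alone gave 7 genes, and leaving it out together with wt_1386_4 gave 5.

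At an unadjusted p under 0.05, 13 of the 38 genes were lower, or 34.2%, against 12.2% of all genes. In the other direction, 2 genes (*Vnn1* and *Ppargc1a*) were higher, or 5.26%, against 13% of all genes. A difference below 0, whatever its size, was found in 31 of the 38 genes (81.6%) and in 57.2% of all genes. Of the values closest to 0, *Fabp1* and *Acot2* turned above 0 with arrays centred on their medians, and *Hadhb* and *Bdh1* turned below 0 with quantile normalisation repeated. The median log2 difference of the 38 genes was -0.11, against -0.022 over all genes, and their range ran from -0.79 (*Acot1*) to 0.53 (*Abcd2*). In none of the 38 genes were all tg arrays below all wt arrays, which held for 0.0055% of all genes. With the label number as a term in the model, 3 of the 38 genes were lower and 0 were higher, beside 1.88% and 5.39% of all genes. The third gene was *Slc25a20*.

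**Figure D1:**
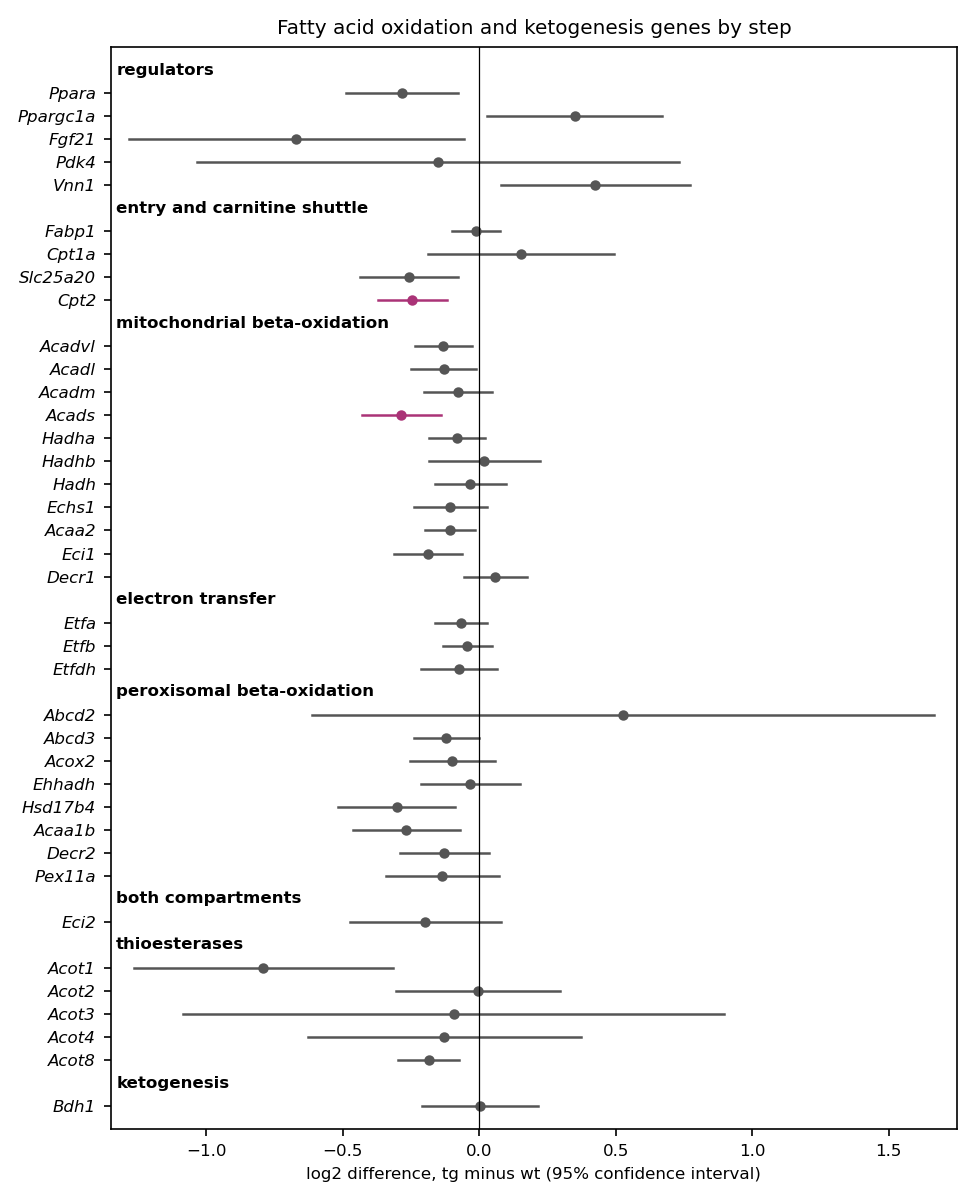
Log2 differences, tg minus wt, of the 38 genes by step (points) with their 95% confidence intervals (lines), from the fit over 20 arrays. *Cpt2* and *Acads*, in purple, passed the adjusted threshold, and the points of 31 genes lie below 0.

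In the carnitine shuttle and entry step, 1 of 4 measured genes fell and 0 rose. *Cpt2*, carnitine palmitoyltransferase of the inner membrane, ran from 9.53 to 10.19 on tg arrays (median 9.86) and from 9.99 to 10.23 on wt arrays (median 10.07). On 9 of the 10 tg arrays it was below every wt array, and the exception was tg_1386_9, which had the highest value of the tg group. The means were 9.85 ± 0.171 (SD, n = 10) in tg and 10.10 ± 0.093 (SD, n = 8) in wt livers. The log2 difference was -0.25 (SE 0.061), or 0.844 times the wt signal, with an adjusted p of 0.0380 in limma. Adjusted p was 0.0839 with the near-identical wt arrays averaged and 0.176 without the tg_1423_2-8 and wt_1423_2-8 arrays, with differences of -0.25 and -0.24. Within the 6 label numbers, *Cpt2* was lower in tg livers in 5, with differences from -0.34 to 0.029. A second probe set of *Cpt2*, near the low end of the signal range, had a difference of -0.089 (SE 0.074), and with the mean of both probe sets the adjusted p was 0.0964.

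*Slc25a20*, the carnitine-acylcarnitine carrier, ran from 9.46 to 10.28 on tg arrays (median 9.78) and from 9.88 to 10.36 on wt arrays (median 10.03). The groups overlapped, although 6 tg arrays were below every wt array. The log2 difference was -0.26 (SE 0.087) and did not pass the test, with an adjusted p of 0.102 in limma. It was below 0 within all 6 label numbers, from -0.57 to -0.018, and with the label number as a term the adjusted p was 0.0410, but with the number as a random block it was 0.0712. *Cpt1a*, the outer-membrane transferase that controls entry, had a log2 difference of 0.15 (SE 0.164, adjusted p 0.633 in limma). Its tg arrays ran from 9.73 to 10.93 (median 10.19) and its wt arrays from 9.71 to 10.93 (median 9.93), so that the groups covered the same span. The fatty acid binding protein gene *Fabp1* had a difference of -0.012 (SE 0.042), with a 95% confidence interval from -0.099 to 0.075.

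**Figure D2:**
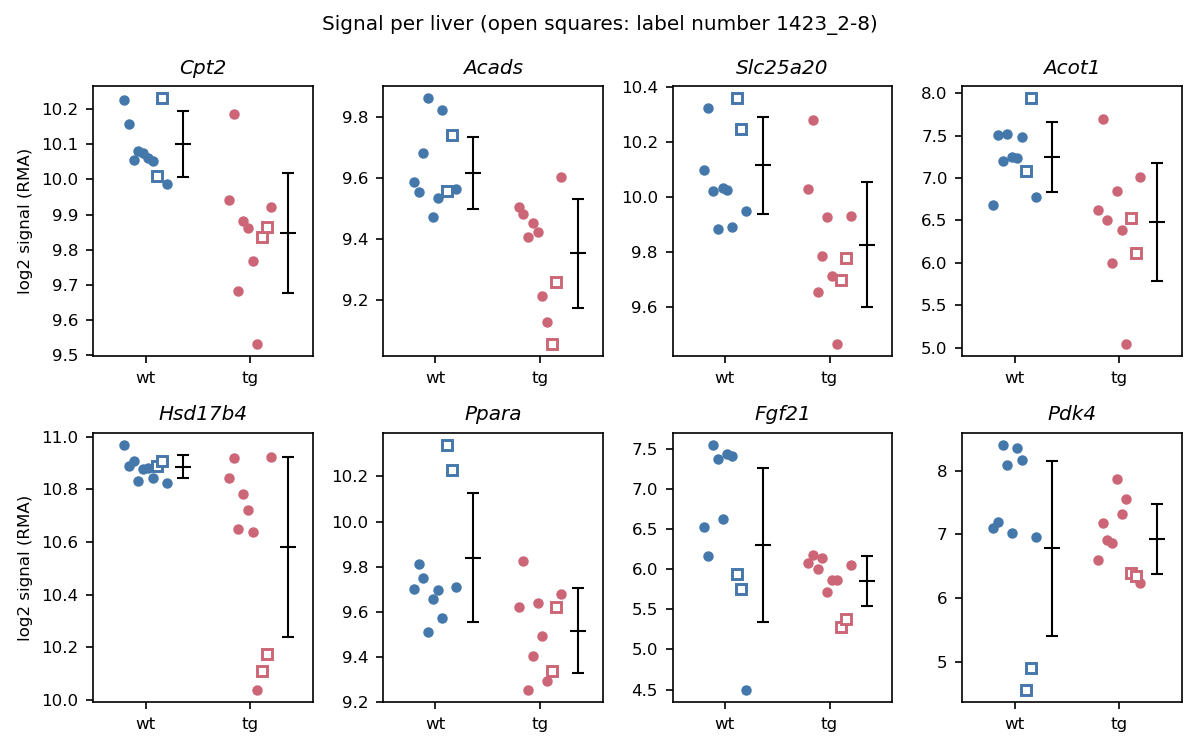
Log2 RMA signal of 8 genes on each of the 20 arrays, by genotype (blue wt, red tg); open squares are the tg_1423_2-8 and wt_1423_2-8 arrays, and black bars give mean ± SD (n = 8 for wt, with near-identical arrays averaged, and n = 10 for tg). For *Cpt2*, 9 of 10 tg arrays lie below all wt arrays, while for *Hsd17b4* 3 tg arrays lie far below the other 7.

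The promoters of *Cpt2*, *Acads* and *Slc25a20* are shown because these were the genes that passed with the label number as a term, and those of *Fabp1* and *Acot4* because a PPAR-type element was found in them. They are the 250 bases before the start site from RefSeq (build GRCm38.p6), written 5′ to 3′ on the strand of the gene. The table held promoters for 33 of the 38 genes, some with several starts (37 promoters). Searched on both strands were the GC box GGGCGG, an ERR-like motif TNAAGGTCA, an NRF1-like motif (GCGCA and GCGC with 1 base between them) and a DR1-like motif (GGNCA and AGGTCA with 1 base between them), the last being the direct repeat read by PPARα with its partner RXR. No match to one of these motifs overlapped a match to another in the promoters shown. Capitals mark every match to these motifs. *Cpt2* lies on chr4:107923590-107923839 (minus strand), *Acads* on chr5:115119347-115119596 (minus), *Slc25a20* on chr9:108661886-108662135 (plus), *Fabp1* on chr6:71199629-71199878 (plus) and *Acot4* on chr12:84038129-84038378 (plus).
Cpt2: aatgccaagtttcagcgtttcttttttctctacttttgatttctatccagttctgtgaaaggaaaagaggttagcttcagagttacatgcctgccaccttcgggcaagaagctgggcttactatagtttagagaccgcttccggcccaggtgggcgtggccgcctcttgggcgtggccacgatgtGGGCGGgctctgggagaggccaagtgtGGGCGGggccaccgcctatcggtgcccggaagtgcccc
Acads: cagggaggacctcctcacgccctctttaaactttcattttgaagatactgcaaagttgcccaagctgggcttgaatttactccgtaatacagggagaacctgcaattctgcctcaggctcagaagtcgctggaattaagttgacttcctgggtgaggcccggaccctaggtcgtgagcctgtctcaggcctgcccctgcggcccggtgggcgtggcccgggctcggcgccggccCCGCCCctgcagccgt
Slc25a20: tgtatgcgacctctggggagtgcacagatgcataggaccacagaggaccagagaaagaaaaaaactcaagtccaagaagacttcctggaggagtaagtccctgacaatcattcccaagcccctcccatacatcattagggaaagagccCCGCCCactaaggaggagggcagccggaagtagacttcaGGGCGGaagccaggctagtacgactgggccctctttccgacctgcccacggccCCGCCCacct
Fabp1: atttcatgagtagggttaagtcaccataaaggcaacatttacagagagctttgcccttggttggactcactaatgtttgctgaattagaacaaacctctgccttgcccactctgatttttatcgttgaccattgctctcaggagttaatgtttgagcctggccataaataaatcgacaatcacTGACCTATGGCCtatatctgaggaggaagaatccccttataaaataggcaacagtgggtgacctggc
Acot4: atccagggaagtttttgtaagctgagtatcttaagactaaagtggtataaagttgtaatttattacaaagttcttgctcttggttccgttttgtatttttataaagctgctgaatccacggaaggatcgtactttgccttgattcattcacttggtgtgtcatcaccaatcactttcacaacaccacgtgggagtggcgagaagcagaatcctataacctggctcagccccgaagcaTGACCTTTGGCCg
*Cpt2*, *Acads* and *Slc25a20* each held a GC box, as did 17 of the 37 promoters of the list (45.9%) and 32.7% of all 32851 promoters of this length. They had 13, 14 and 8 CpG dinucleotides, against a median of 6 over all promoters. The DR1-like motif was found in 2 of the 37 promoters (*Fabp1* and *Acot4*) and in 0.17% of all promoters, the ERR-like motif in 0 of 37 and 1.14% of all, and the NRF1-like motif in 4 (*Abcd3*, *Etfb*, *Etfdh* and *Ppara*) and 3.74% of all. Neither *Fabp1* nor *Acot4* passed the test between genotypes. A match is a description of letters in this window and not a measured site.

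Of the 11 measured genes of mitochondrial beta-oxidation proper, 1 fell and 0 rose, and 9 had a difference below 0 (median -0.11). *Acads*, which opens the oxidation of short acyl chains, ran from 9.05 to 9.60 on tg arrays (median 9.41) and from 9.47 to 9.86 on wt arrays (median 9.58). On 7 tg arrays it was below every wt array, and the highest tg array was tg_14231_6. Means were 9.35 ± 0.179 (SD, n = 10) in tg and 9.62 ± 0.119 (SD, n = 8) in wt livers. The log2 difference was -0.29 (SE 0.070), or 0.82 times the wt signal, with an adjusted p of 0.0345 in limma. It was below 0 within 5 of the 6 label numbers. Adjusted p was 0.0896 with the near-identical wt arrays averaged, 0.194 without the tg_1423_2-8 and wt_1423_2-8 arrays and 0.236 without tg_1420_4 and both tg_1423_2-8 arrays, with differences of -0.26, -0.23 and -0.20.

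The dehydrogenases for longer chains had smaller differences, none of which passed the test: -0.13 for *Acadvl* (very long), -0.13 for *Acadl* (long) and -0.077 for *Acadm* (medium). For *Acadvl*, 6 tg arrays were below every wt array and 1 was above, with tg arrays from 10.67 to 11.11 and wt arrays from 10.96 to 11.08. *Hadha* and *Hadhb* encode the α and β subunits of the trifunctional protein, which carries out the remaining steps on long chains, and their differences were -0.081 and 0.019. *Echs1* (hydratase), *Hadh* (short-chain hydroxyacyl-CoA dehydrogenase) and *Acaa2* (thiolase) had differences of -0.11, -0.032 and -0.11. The other probe sets of *Acaa2* gave -0.16 (adjusted p 0.0816) and -0.30 (adjusted p 0.105), and with the mean of its probe sets *Acaa2* passed the test at -0.19 (adjusted p 0.0432 in limma). *Eci1*, the isomerase needed for unsaturated chains, had a difference of -0.19 (SE 0.060) with an adjusted p of 0.0852 in limma. On 6 tg arrays *Eci1* was below every wt array, the lowest being tg_1420_4 at 9.99 and the wt arrays starting at 10.37. *Decr1*, the dienoyl-CoA reductase, had the highest difference of this group at 0.059 (SE 0.055, adjusted p 0.571 in limma). Its highest values were on tg_1423_2-8_1 and tg_1423_2-8_4, at 11.16 and 11.21, and the other 8 tg arrays ran from 10.81 to 10.95 within the wt range of 10.74 to 11.02.

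The electron transfer flavoprotein takes the electrons of the acyl-CoA dehydrogenases to the respiratory chain. Its subunits *Etfa* and *Etfb* had differences of -0.067 and -0.043, and the oxidoreductase *Etfdh* of -0.075. The SE of *Etfb* was 0.044 (adjusted p 0.607) and that of *Etfdh* 0.067 (adjusted p 0.557 in limma). In each of the 3 genes tg and wt arrays overlapped, with 2 or 3 tg arrays below every wt array. Of 22 measured genes of the respiratory chain and citrate cycle, 0 passed the test in either direction (7 were lower and 1 higher at an unadjusted p under 0.05), and their median difference was -0.052.

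Of the 8 genes assigned to peroxisomal beta-oxidation, 0 passed the test, 2 were lower at an unadjusted p under 0.05 and 7 had a difference below 0 (median -0.12). *Hsd17b4*, the D-bifunctional protein that hydrates and dehydrogenates very long and branched chains, ran from 10.04 to 10.92 on tg arrays (median 10.68) and from 10.83 to 10.97 on wt arrays (median 10.89). Its lowest values, 10.04, 10.11 and 10.17, belonged to tg_1420_4, tg_1423_2-8_1 and tg_1423_2-8_4, and the other 7 tg arrays started at 10.64. The log2 difference was -0.30 (SE 0.103, adjusted p 0.104 in limma). The tg SD of 0.341 was above the wt SD of 0.044, and the spread of the groups was not compared by a test. A second *Hsd17b4* probe set, also above the median signal, gave -0.25 (SE 0.086, adjusted p 0.112 in limma). Its tg arrays ran from 9.98 to 10.66 and its wt arrays from 10.34 to 11.04. There the SDs were close, at 0.199 in tg and 0.206 in wt livers. On tg_1420_4, tg_1423_2-8_1 and tg_1423_2-8_4, *Hsd3b5* was at 8.54, 3.43 and 4.04, against 10.95 to 11.85 on the other tg arrays. Among wt arrays, *Hsd3b5* was low on wt_1407_5 (8.36), wt_1420_7 (8.42) and wt_1423_2-8_9 (5.04), where *Hsd17b4* was at 10.83, 10.84 and 10.91, near the other wt arrays (10.83 to 10.97). *Hsd3b5*, a steroid dehydrogenase gene of male liver, was chosen after its values were seen, and its part in the result was not tested. All 20 arrays carried signal of Y-linked *Eif2s3y*, from 8.92 to 9.57.

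*Acaa1b*, a peroxisomal thiolase, had a difference of -0.27 (SE 0.094, adjusted p 0.114 in limma), and on 7 tg arrays it was below every wt array. *Ehhadh*, the L-bifunctional protein and a classical PPARα target, had a difference of -0.033, with a 95% confidence interval from -0.21 to 0.15. *Abcd3*, the importer of branched and bile acid precursors, *Acox2*, their oxidase, *Decr2*, the reductase of this compartment, and *Pex11a*, a factor of peroxisome division, had differences of -0.12, -0.10, -0.13 and -0.13. *Eci2*, an isomerase found in both compartments, had a difference of -0.20 (SE 0.133, adjusted p 0.418 in limma), with wt_1423_2-8_3 and wt_1423_2-8_9 highest of all arrays at 10.54 and 10.33.

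*Abcd2*, an importer of very long acyl-CoA, had the highest difference of the list at 0.53, with an SE of 0.549 (adjusted p 0.622 in limma). It ran from 4.02 to 7.50 on tg arrays (median 5.62) and from 3.02 to 7.93 on wt arrays (median 5.59), and both groups spanned the same levels. The highest values were on wt_1423_2-8_9, tg_1423_2-8_4 and tg_1423_2-8_1, at 7.93, 7.50 and 7.32, followed by tg_1420_4 at 6.82. These are arrays on which *Hsd3b5* was low, at 5.04 on wt_1423_2-8_9. Next in *Abcd2* came wt_1423_2-8_3 at 6.54, where *Hsd3b5* was high at 11.88. After it came wt_1420_7 and wt_1407_5 at 6.33 and 6.23, with *Hsd3b5* at 8.42 and 8.36. A link between the genes was not tested. Without tg_1420_4 and both tg_1423_2-8 arrays, the *Abcd2* difference was -0.054. Other probe sets of *Abcd2* above the median signal gave 0.29 and 0.053.

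The acyl-CoA thioesterases release free fatty acid and CoA, in the cytosol (*Acot1*), the mitochondrion (*Acot2*) and the peroxisome (*Acot3*, *Acot4* and *Acot8*). All 5 had differences below 0 (*Acot2* at 0.018 with arrays centred on their medians) and none passed the test in the fit with genotype alone. *Acot1* had the lowest difference of the list, -0.79 (SE 0.229), or 0.578 times the wt signal, with an adjusted p of 0.0641 in limma. It ran from 5.05 to 7.70 on tg arrays (median 6.52) and from 6.68 to 7.94 on wt arrays (median 7.24). On 7 tg arrays it was below every wt array, with tg_1420_4 the lowest and tg_1386_9 the highest of the tg group. Besides the fits that left out 1 array, *Acot1* passed the test without tg_1386_9 and wt_1386_4 (adjusted p 0.0241), with the label number as a random block (0.0486) and with probe sets above the median signal only (0.0384), and had an adjusted p of 0.134 with the near-identical wt arrays averaged. Within the label numbers its differences ran from -1.23 to 0.24.

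*Acot2*, *Acot1*, *Acot4* and *Acot3* follow each other on chromosome 12 and are close paralogs, and binding of RNA from one paralog to the probe set of another was not tested. *Acot2* had the highest difference of the thioesterases at -0.0053 (SE 0.145, adjusted p 0.988 in limma), with a 95% confidence interval from -0.31 to 0.30. *Acot3* had a difference of -0.094 with an SE of 0.477, and its values from 5.14 to 9.94 were led by wt_1423_2-8_9 at 9.94 and tg_1423_2-8_1 at 8.29. *Acot4* had a difference of -0.13 (SE 0.241). *Acot8*, which lies apart on chromosome 2, had a difference of -0.19 (SE 0.054) with an adjusted p of 0.0671 in limma, and on 7 tg arrays it was below every wt array. *Acot8* passed the test in 4 alternatives besides the fits that left out 1 array, among them without tg_1386_9 and wt_1386_4 (adjusted p 0.0351) and with quantile normalisation repeated (0.0323), and had an adjusted p of 0.129 with the near-identical wt arrays averaged.

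Of the 5 genes grouped as regulators, among them the PPARα target *Vnn1*, 0 passed the test. *Ppara*, the receptor gene itself, ran from 9.25 to 9.82 on tg arrays (median 9.56) and from 9.51 to 10.34 on wt arrays (median 9.70). The highest wt values, 10.34 and 10.23, were those of the wt_1423_2-8 arrays, and the other wt arrays ended at 9.81. The log2 difference was -0.28 (SE 0.099, adjusted p 0.115 in limma), and between the tg_1423_2-8 and wt_1423_2-8 arrays it was -0.81, against -0.31 to 0.0097 within the other numbers. *Ppargc1a*, a coactivator of PPARα that promotes mitochondrial gene expression, had a difference of 0.35 (SE 0.155, adjusted p 0.203). It was higher in tg livers within all 6 label numbers, by 0.041 to 0.74, and 6 tg arrays were above every wt array.

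*Vnn1*, pantetheinase and a PPARα target, had the highest difference of the genes grouped as regulators at 0.43 (SE 0.167, adjusted p 0.154 in limma). It ran from 8.15 to 9.48 on tg arrays (median 8.74) and from 7.88 to 8.91 on wt arrays (median 8.27). The groups overlapped, with 4 tg arrays above every wt array. *Fgf21*, a hepatokine released in fasting, had the lowest difference of this group at -0.67 (SE 0.296, adjusted p 0.203 in limma). Its tg arrays ran from 5.28 to 6.17 (median 5.94) and its wt arrays from 4.49 to 7.55 (median 6.57). The wt range was wider on both sides, and the lowest value of all was on wt_14231_2. The highest wt values, from 7.37 to 7.55, were those of the near-identical arrays wt_1407_2, wt_1420_6, wt_1420_7 and wt_1407_5. With each such pair counted once, the means were closer than -0.67, at 5.85 ± 0.309 (SD, n = 10) in tg and 6.30 ± 0.959 (SD, n = 8) in wt livers.

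*Pdk4*, the kinase that switches pyruvate oxidation off when fat is burned, had a difference of -0.15 (SE 0.426, adjusted p 0.875 in limma). With the near-identical wt arrays averaged the difference was 0.14. Its lowest signals were on wt_1423_2-8_3 and wt_1423_2-8_9, at 4.55 and 4.90, while the other 8 wt arrays ran from 6.96 to 8.40. *Bdh1*, which interconverts the ketone bodies acetoacetate and hydroxybutyrate and is the measured ketogenesis gene of the list, had a difference of 0.0018 (SE 0.103, adjusted p 0.995 in limma), with a 95% confidence interval from -0.21 to 0.22. Its tg arrays ran from 10.39 to 11.21 (median 10.64) and its wt arrays from 10.33 to 11.07 (median 10.67).

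The mitochondrial and the peroxisomal steps were then set side by side, after each gene was centred on its mean over all arrays. The mean over the 18 genes of mitochondrial steps was -0.045 ± 0.088 (SD, n = 10) in tg and 0.050 ± 0.099 (SD, n = 8) in wt livers, a difference of -0.095. The mean over the 10 genes of peroxisomal steps was -0.042 ± 0.204 in tg and 0.064 ± 0.387 in wt livers, a difference of -0.11. The peroxisomal difference rested on 1 array: without wt_1423_2-8_9, an alternative chosen after seeing the data, it was 0.011 (wt mean -0.052 ± 0.217, SD, n = 7), and the mitochondrial difference was then -0.069. Tg livers were lower within 3 of 6 label numbers for the mitochondrial and 2 of 6 for the peroxisomal mean. Of these genes, 2 of 18 and 0 of 10 were lower by the test.

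Mitochondrial minus peroxisomal steps ran from -0.29 to 0.23 on tg arrays (median 0.012) and from -0.65 to 0.30 on wt arrays (median -0.0013). The groups overlapped over the whole tg range, and their means differed by 0.011, below the SD of 0.158 in tg and 0.296 in wt livers. Without the thioesterases this difference was -0.015, and within the label numbers it ran from -0.12 to 0.11. As members were chosen with results known, no test was made of these scores. The lowest wt value belonged to wt_1423_2-8_9, on which the peroxisomal mean was 0.88 and the mitochondrial mean 0.23. Without the thioesterases (7 peroxisomal and 17 mitochondrial genes), these means were 0.51 and 0.20 on that array. There *Acot3*, *Abcd2* and *Acot4* were at 9.94, 7.93 and 6.88, against wt medians of 6.02, 5.59 and 5.26. *Ehhadh* and *Acaa1b* were also highest of the wt group there, at 11.37 and 13.18. *Acox2*, *Abcd3* and *Decr2* were at 10.76, 11.92 and 9.06, against wt medians of 10.96, 11.92 and 9.03. The mitochondrial mean of 9 tg arrays was below the wt median, and 4 were below every wt array. tg_1420_4 had the lowest mitochondrial mean (-0.21) and tg_1386_9 the highest of the tg group (0.11).

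**Figure D3:**
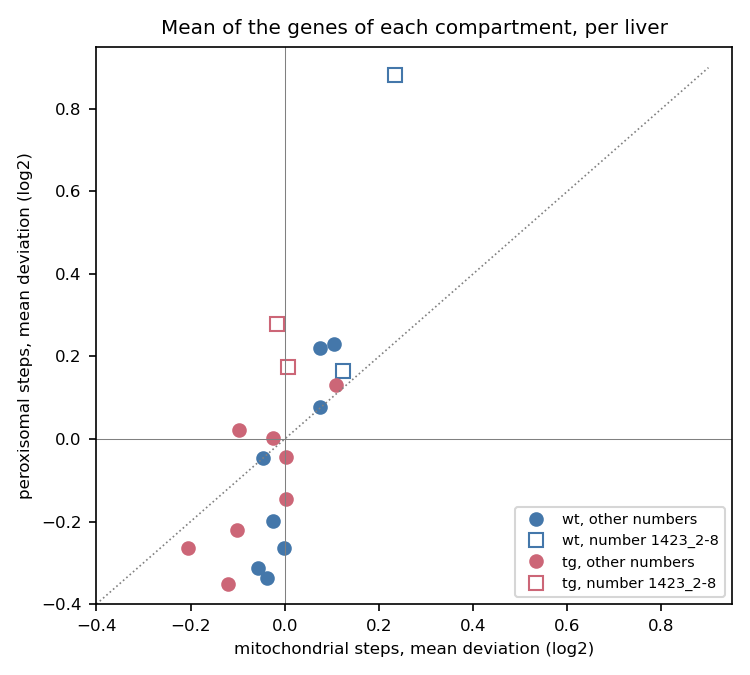
Mean deviation (log2) of the 18 genes of mitochondrial steps (x axis) and the 10 genes of peroxisomal steps (y axis) on each of the 20 arrays, each gene centred on its mean over the arrays; the dotted line marks equal deviations. Tg and wt arrays overlap on both axes, and wt_1423_2-8_9 stands apart at 0.88 on the y axis.

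The difference between genotypes was not alike across label numbers. In tg_1407, tg_1420 and tg_1423_2-8 livers against the wt livers of the same number, with 2 or 3 arrays on each side, 33, 28 and 31 of the 38 genes were lower in tg livers, with medians of -0.18, -0.13 and -0.21. In tg_1371, tg_1386 and tg_14231 livers, with 1 array on each side, 20, 11 and 14 genes were lower, with medians of -0.017, 0.037 and 0.056. The wt_1407 and wt_1420 groups share the near-identical arrays, and a difference between numbers was not tested. tg_1420_4 had the lowest value of the tg group in 16 of the 38 genes and tg_1407_9 in 8.

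**Figure D4:**
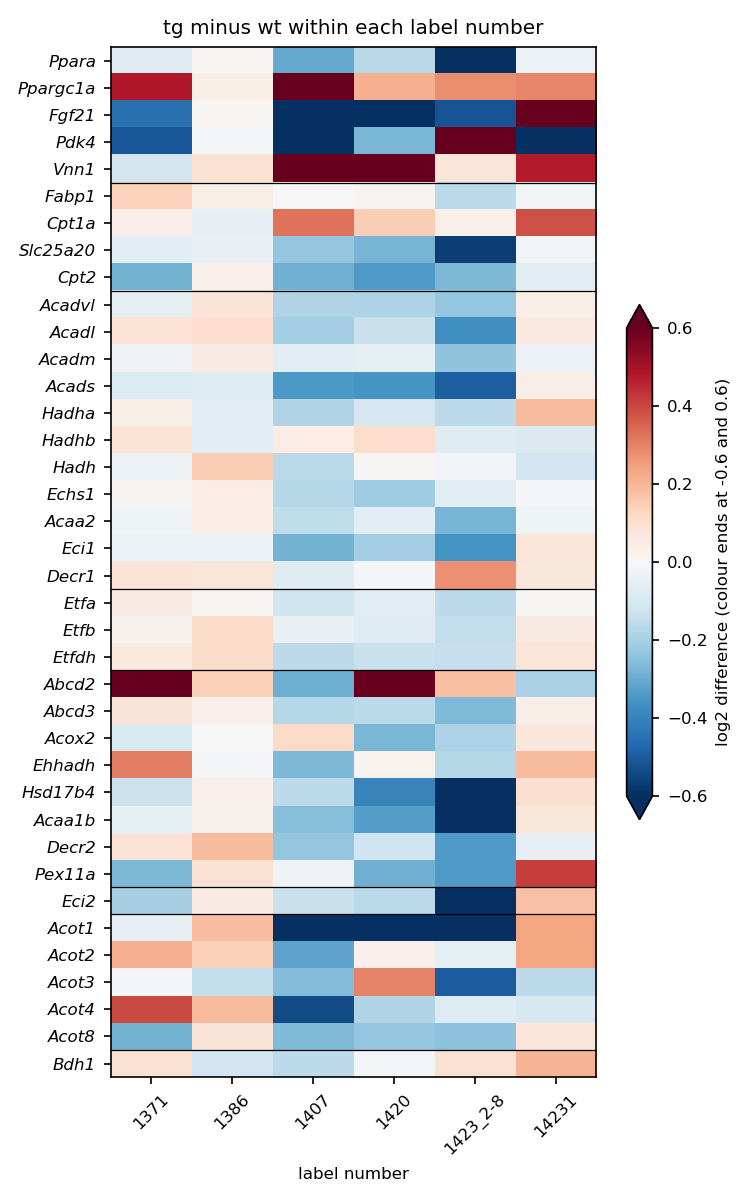
Log2 difference, mean of tg minus mean of wt arrays, of the 38 genes (rows, grouped by step) within each of the 6 label numbers (columns); the colour scale ends at -0.6 and 0.6. Blue (lower in tg) prevails in the columns of tg_1407, tg_1420 and tg_1423_2-8, with 33, 28 and 31 genes. Fewer genes are blue in the columns of tg_1371, tg_14231 and tg_1386, with 20, 14 and 11. In tg_1386 the tg and the wt array were closer than the near-identical wt pairs, and the part of this in its column was not tested.

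Some genes of the list were set apart in the tg_1423_2-8 and wt_1423_2-8 livers alike. In 4 of the 38 genes, *Cpt1a*, *Hadhb*, *Bdh1* and *Acot3*, all 4 arrays of this number were above all 16 other arrays (10.5%, against 1.07% of all genes), and in 0 genes all 4 were below (0.83% of all genes). *Cpt1a* was at 10.76 to 10.93 on these 4 arrays and at 9.71 to 10.27 on the other 16. *Hadhb* was at 10.89 to 11.05 against 10.32 to 10.82, and *Bdh1* at 10.91 to 11.21 against 10.33 to 10.76. *Acot3* was at 6.58 to 9.94 against 5.14 to 6.56, so that wt_1423_2-8_3 at 6.58 was barely above wt_1407_5 at 6.56. The 4 arrays are the ones with high *Dbp* and low *Arntl*, and no hour of sampling is stated in the labels or methods read here. The part of the clock in these levels was not tested. *Pdk4* went the other way within this number, at 4.55 and 4.90 on wt arrays but 6.34 and 6.38 on tg arrays.

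**Figure D5:**
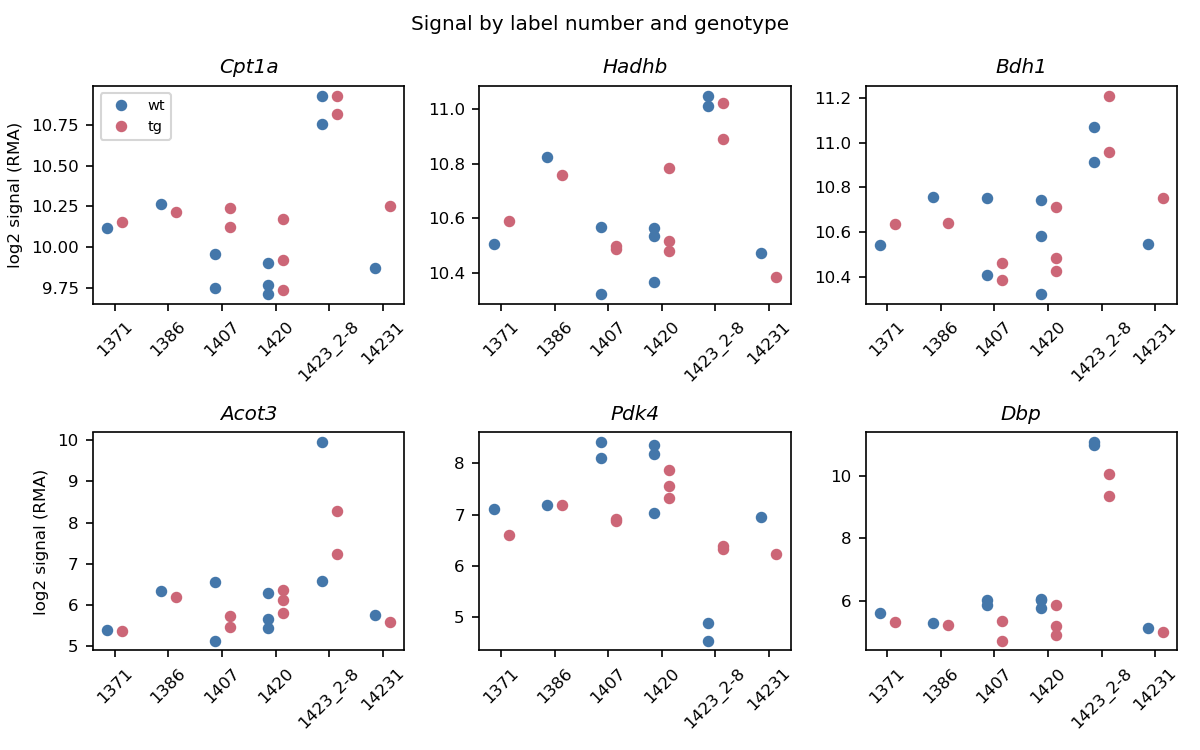
Log2 RMA signal of 5 genes of the list and of the clock output gene *Dbp* by label number (x axis) and genotype (blue wt, red tg), 1 point per array. *Cpt1a*, *Hadhb*, *Bdh1* and *Acot3* are highest on the tg_1423_2-8 and wt_1423_2-8 arrays, while *Pdk4* is lowest on the wt arrays of that number.

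Other genes of the pathway, outside the 39, were taken from a list of 123 genes, of which 110 were measured. The median log2 difference was -0.052, against -0.022 over all genes. At an unadjusted p under 0.05, 22 genes were lower and 10 higher, beside 12.2% and 13% of all genes. By the test, 2 genes were lower and 2 higher, beside 0.967% and 2.98% of all genes. How these calls fare with arrays left out or averaged is not reported here. *Ech1*, a dienoyl-CoA isomerase of mitochondria and peroxisomes, fell by 0.30 (SE 0.078, adjusted p 0.0473 in limma), with tg arrays from 10.11 to 10.81 (median 10.47) and wt arrays from 10.65 to 10.99 (median 10.79). *Mgll*, monoglyceride lipase, fell by 0.75 (SE 0.159, adjusted p 0.0178), and on 7 tg arrays it was below every wt array. *Acsl4*, an acyl-CoA synthetase with a preference for arachidonic acid, rose by 0.32 (SE 0.076, adjusted p 0.0326), and was higher in tg livers within all 6 label numbers.

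*Cyp4a31*, a cytochrome P450 of a family that oxidises the far end of fatty acids, rose by 1.26 (SE 0.301, adjusted p 0.0313 in limma). It ran from 7.13 to 9.52 on tg arrays (median 8.00) and from 6.25 to 7.75 on wt arrays (median 6.80), and 6 tg arrays were above every wt array. The highest values, 9.52, 9.25 and 8.95, were on tg_1423_2-8_1, tg_1423_2-8_4 and tg_1420_4, and the other tg arrays ended at 8.28. *Cyp4a14*, a relative of *Cyp4a31*, had the largest difference of these genes at 1.38, with an SE of 0.749 (adjusted p 0.305) and values from 3.83 to 9.60 on wt arrays alone. *Slc16a6*, a carrier that exports ketone bodies, had a difference of 0.56 (SE 0.167, adjusted p 0.0731). *Retsat*, retinol saturase, had a difference of -0.80 (SE 0.275, adjusted p 0.106, and 0.0488 with the label number as a term), and *G0s2*, an inhibitor of triglyceride lipolysis, of -0.64 (SE 0.326, adjusted p 0.275 in limma). *Retsat* was lowest on tg_1423_2-8_1, tg_1423_2-8_4 and tg_1420_4, at 7.73, 7.94 and 8.49, the arrays that were lowest in *Hsd17b4*.

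By subgroup, 0 of 27 other mitochondrial genes passed the test (6 lower and 1 higher at an unadjusted p under 0.05, median difference -0.10). Of 33 other peroxisomal genes 1 was lower, of 18 genes of uptake and activation 1 was higher, and of 30 PPAR and fasting targets 1 was lower and 1 higher. Of 6 other ketone body genes 0 passed the test, with 3 higher and 0 lower at an unadjusted p under 0.05 and a median difference of 0.22. Over all genes, 12.2% were lower and 13% higher at that unadjusted threshold.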

How the data were processed

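Per the labels, RNA of 20 livers was hybridised to single arrays, and the deposited values are log2 signals that the authors made with RMA (version not given in the sources used here). They were used as deposited, for 45101 probe sets. Array medians ran from 4.46 to 4.55, and the number of arrays limits the precision. Probe sets with 1 gene symbol in GEO's platform annotation (34958) were named, and those with several (932) or none (9211) were not. Genotypes were compared with limma 3.58.1 (R 4.3.3) in a model holding genotype alone, with Benjamini-Hochberg adjustment across all probe sets (threshold 0.05). The probe set choice, role groups and naming rule are those of the report: all listed genes were named, with full statistics for those past the threshold and the lowest and highest of each role group. Of the other pathway genes, those past the threshold and the 3 largest differences each way were named. The genes and lists were chosen with earlier results of these data known. Each array is labelled as 1 liver, and nothing says how the mice were related. Label numbers, whose meaning the labels do not give, are shared by both genotypes: deviations of same-numbered tg and wt arrays correlated at 0.184 to 0.404 in all 6 numbers, and in 5 of 6 the own number correlated best, so the number was also fitted as a term and its values are given where it changed a call. Alternatives covered the label number as a term, left-out arrays, normalisation, low signals, probe set choice and an *Xist* covariate. *Xist* was at 3.51 to 4.74 on the 20 arrays, all of which carried Y-linked signal, so that this covariate could not test a difference of sex. The fit was tested on simulated data.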

Additional observations from a re-analysis of the deposited data

Results flagged for a closer look

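In each genotype, the highest and the lowest array of each gene was compared with its nearest neighbour by Dixon's criterion, which flags about 1 in 20 groups by chance, and 5 of 78 groups were flagged. wt_1423_2-8_9 stood apart in 3 of them. It was at 12.87 for *Hadh* (next 12.56), at 9.94 for *Acot3* (next 6.58) and at -0.65 for mitochondrial minus peroxisomal steps (next -0.14). tg_1420_4 was at 10.44 for *Echs1*, below the next tg array at 10.73. wt_14231_2 was at 10.37 for *Eci1*, below the next wt array at 10.47.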

How the results depend on the processing

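*Cpt2* and *Acads* kept their direction under every alternative run. *Cpt2* passed the test in 7 and *Acads* in 11 of the 20 fits that left out 1 array each, and with all such fits the count of listed genes lower in tg ran from 0 to 7 and that of all probe sets called from 463 to 2460, against 2 and 1149. The count of listed genes was 0 in 9 of these fits (without tg_1407_3, tg_1420_14, tg_1420_4, tg_1423_2-8_1, tg_1423_2-8_4, wt_1407_2, wt_1407_5, wt_1420_7 or wt_1423_2-8_9), 1 without wt_1371_4, wt_1386_4, wt_1420_1 or wt_1420_6, 3 without wt_14231_2, 4 without tg_14231_6 and 7 without tg_1386_9. No listed gene was higher in any fit. The 2 counts were 3 and 2241 with the label number as a term (pairing), which changed no other call of a listed gene than that of *Slc25a20*, and 3 and 1791 with it as a random block, where the third gene was *Acot1* and not *Slc25a20*. They were 0 and 276 with the near-identical wt arrays averaged, 5 and 1693 without tg_1386_9 and wt_1386_4, 0 and 74 without the tg_1423_2-8 and wt_1423_2-8 arrays, 0 and 166 without tg_1420_4 and both tg_1423_2-8 arrays, and 4 and 1881 with probe sets above the median signal only. These fits hold fewer arrays or fewer probe sets, and their counts of all probe sets called lay on both sides of 1149. The cause was not tested. The lower share of all calls was 26.0%, and 41.1% with quantile normalisation repeated and 13.9% with arrays centred on their medians, where the listed genes lower were 3 and 2.

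None of the differences that changed sign passed the test. With the near-identical wt arrays averaged, they were 0.14 for *Pdk4*, -0.025 for *Hadhb* and -0.025 for *Bdh1*. Without the tg_1423_2-8 and wt_1423_2-8 arrays, they were 0.025 for *Fabp1*, 0.0011 for *Ehhadh*, 0.0066 for *Acot2*, 0.0067 for *Acot3* and -0.021 for *Bdh1*. Without tg_1420_4 and both tg_1423_2-8 arrays, they were -0.011 for *Cpt1a*, -0.091 for *Hadhb*, -0.0048 for *Decr1*, 0.016 for *Etfb*, 0.022 for *Etfdh*, -0.054 for *Abcd2*, 0.015 for *Acox2*, 0.0024 for *Ehhadh* and -0.12 for *Bdh1*. They were -0.00047 for *Hadhb* and -0.015 for *Bdh1* with quantile normalisation repeated, 0.011 for *Fabp1* and 0.018 for *Acot2* with arrays centred, -0.013 for *Bdh1* with the mean of its probe sets, and 0.011 for *Acot2* with *Xist* as a covariate. Over the fits without 1 array, ranges that crossed 0 were -0.069 to 0.090 (*Acot2*), -0.32 to 0.31 (*Acot3*), -0.24 to 0.029 (*Acot4*), -0.058 to 0.047 (*Bdh1*), -0.066 to 0.017 (*Ehhadh*), -0.023 to 0.0020 (*Fabp1*), -0.059 to 0.0071 (*Hadh*) and -0.024 to 0.066 (*Hadhb*).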
